A study of Homo sapiens with 20 samples.

Results

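The comparison described here sets human endothelial cells given interferon gamma (IFNg) and tumour necrosis factor alpha (TNFa) together against the same cells left untreated. It rests on 4 of the 20 RNA-seq libraries of the series, which the labels define: iHUVEC and TIME cells with both cytokines, and iHUVEC and TIME cells with none. The treated cells received 10 ng/ml of IFNg and 10 ng/ml of TNFa for 24 h. The other 16 libraries were the same endothelial lines with IFNg alone or TNFa alone at 10 ng/ml for 24 h, and 3 acute myeloid leukemia (AML) lines, THP-1, NOMO-1 and Kasumi-1, under the same 4 conditions. Both endothelial lines were labelled only as endothelial cell lines. The name TIME is in common use for telomerase-immortalised microvascular endothelial cells and HUVEC for umbilical vein endothelial cells, but the labels spell out neither name. Each line gave 1 library per condition, so the line is the replicate (n = 2 per group). Errors and p-values of the endothelial comparisons rest in part on how far the changes between conditions differed between these 2 lines. That spread was pooled over all 4 conditions, single cytokines included, after the constant difference between the lines was removed. It was then drawn toward the spread of other genes of similar level, which carried about equal weight (3.16 prior against 3 residual degrees of freedom). A gene thus has the same SE for its differences from untreated, from IFNg alone and from TNFa alone. Differences between the lines had no test of their own. Where values are given as a pair, iHUVEC comes first and TIME second.

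IFNg binds a receptor that activates the kinases JAK1 and JAK2, and this signal turns on IRF1, antigen presentation genes and chemokines. TNFa acts through TNFR1 and its adaptors on NF-kB, which drives adhesion molecules, neutrophil-attracting chemokines and its own inhibitors. Endothelial cells line the vessel wall, where these programmes govern how leukocytes are captured and how the lining clots, leaks and regenerates.

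The deposited values are TPM, a length-scaled share of the transcripts in a library, and no counts were used, so sequencing depth is not known and counting error cannot be stated. The 4 libraries had 12034 and 11791 genes at 1 TPM or more with both cytokines, and 12248 and 12039 genes untreated. The endothelial label was checked against 36 genes of endothelial identity, whose summed level was 4635 and 3990 TPM in the treated and 7012 and 7000.0 TPM in the untreated libraries, and of which 35 reached 1 TPM in each library. Of 19 hematopoietic markers, 17 were under 1 TPM in both treated libraries. CD68 made up nearly all of their sum in both treated libraries, at 106 and 114 TPM, and in untreated iHUVEC, at 42.7 TPM. In untreated TIME CD68 stood at 28.9 TPM, and the sum of 308 TPM was mostly HBB. The untreated TIME library stood apart: it held 274.7 TPM of HBB, 178 TPM of HBA2 and 142 TPM of HBA1, globin genes of red blood cells, while their sum was at most 0.678 TPM in the other 19 libraries.

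Treatment with both cytokines changed a large share of the endothelial transcriptome. Of 13164 genes tested, 4686 (35.6%) were called at an adjusted p under 0.05 by limma on log2(TPM + 1) with the line as a block, 1221 of them higher (9.28%) and 3465 lower (26.3%). All 4686 moved the same way in both lines. This is not separate support, because disagreement between the same 2 lines raises the error and so works against a call. The increases were the steeper ones: 354 genes rose by at least 2 on the log2 scale and 79 by at least 5, whereas 256 fell by at least 2. A TPM is a share of a fixed total, and the called higher genes took 24.8% and 28.4% of it in the treated libraries, against 6.25% and 6.10% in the untreated ones. List counts below are to be read against the shares over all genes, 9.28% higher and 26.3% lower against untreated. Against IFNg alone these shares were 4.82% and 10.7%, and against TNFa alone 1.79% and 6.57%. Over all genes tested the median change from untreated was -0.29 on the log2 scale, and list medians below are to be read against it. After median-of-ratios scaling the median change was -0.03 and the split became 1853 higher (14.1%) and 1587 lower (12.1%) of 13110 genes tested. In bulk RNA, fewer cells of a type and less RNA per cell cannot be told apart.

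The count of calls depended on single libraries. It was 4804 without the treated iHUVEC library, 1860 without the treated TIME library, 270 without the untreated iHUVEC library and 300 without the untreated TIME library. Without the line as a block it was 664. Of the 20 genes with the largest changes, named next, 19, 20, 8 and 8 were called with those 4 libraries left out in turn. For the gene lists, counts "with 1 library left out" are given below in the same order: treated iHUVEC, treated TIME, untreated iHUVEC, untreated TIME.

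The largest increases were in chemokines and interferon-induced enzymes. The ligands of CXCR3, a chemokine receptor on T cells, led, all neighbours on chromosome 4. CXCL10, at chr4:76021117-76023497 on GRCh38, measured 14918 TPM in iHUVEC and 10544 TPM in TIME cells given both cytokines, against 0.852 and 0.516 TPM in the untreated lines (12.87 ± 1.93, adjusted p = 0.00836). Here and below the first number in parentheses is the log2 difference, both cytokines minus untreated, with its SE. CXCL9, at chr4:76001275-76007488, measured 3376 TPM in iHUVEC and 7747 TPM in TIME cells given both cytokines, against 0 and 0.0875 TPM in the untreated lines (12.26 ± 0.61, adjusted p = 0.00128). CXCL11, at chr4:76033682-76041415, measured 8237 and 6926 TPM with both cytokines against 1.19 and 0.388 TPM untreated (12.08 ± 1.69, adjusted p = 0.00762). Treated and untreated libraries lay far apart for all 3 ligands, and together they held 2.65% and 2.52% of all TPM in the treated lines. Without the untreated iHUVEC library the adjusted p was 0.0646 for CXCL10 and 0.0628 for CXCL11, and without the untreated TIME library 0.0517 and 0.0535, while CXCL9 was called in both cases.

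The single cytokines gave each line a different share of this response. CXCL10 stood at 93.3 TPM in iHUVEC and 20.6 TPM in TIME with IFNg alone and at 1609 TPM in iHUVEC and 3.11 TPM in TIME with TNFa alone, so TNFa alone gave a high level in iHUVEC and not in TIME cells. CXCL9 reached 51.8 and 25.6 TPM with IFNg alone and 2.03 and 0.0416 TPM with TNFa alone, far lower in every library that lacked one of the cytokines. With both cytokines CXCL9 was higher than with IFNg alone (7.09 ± 0.61, adjusted p = 0.00555) and than with TNFa alone (11.49 ± 0.61, adjusted p = 0.00767). CXCL10 was called higher than with IFNg alone (8.12 ± 1.93, adjusted p = 0.0424), and the difference from TNFa alone did not pass (7.27 ± 1.93, adjusted p = 0.0618).

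Promoters of 2 of the ligands, CXCL10 and CXCL9, are shown with that of VCAM1 as a description. A link between their letters and the responses was not tested. Sequences are RefSeq promoters on GRCh38.p14, the 250 bases before the transcription start, written 5′ to 3′ on the strand of the gene. CXCL10 lies at chr4:76023498-76023747 (minus strand), CXCL9 at chr4:76007510-76007759 (minus strand) and VCAM1, an adhesion molecule described below, at chr1:100719492-100719741 (plus strand). Capitals mark a pair of GAAA with 2 bases of any kind between them, an interferon-response pattern, and GGNNNTTCC, an NF-kB-like pattern, on either strand.
CXCL10: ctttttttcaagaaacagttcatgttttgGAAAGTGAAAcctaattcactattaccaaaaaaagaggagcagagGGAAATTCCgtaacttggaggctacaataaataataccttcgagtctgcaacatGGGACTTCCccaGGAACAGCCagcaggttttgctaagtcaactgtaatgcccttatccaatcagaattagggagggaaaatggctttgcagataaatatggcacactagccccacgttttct
CXCL9: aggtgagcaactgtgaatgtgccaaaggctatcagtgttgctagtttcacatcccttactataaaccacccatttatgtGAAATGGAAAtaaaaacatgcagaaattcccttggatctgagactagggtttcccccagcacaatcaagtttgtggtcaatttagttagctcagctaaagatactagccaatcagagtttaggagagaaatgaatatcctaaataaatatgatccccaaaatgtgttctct
VCAM1: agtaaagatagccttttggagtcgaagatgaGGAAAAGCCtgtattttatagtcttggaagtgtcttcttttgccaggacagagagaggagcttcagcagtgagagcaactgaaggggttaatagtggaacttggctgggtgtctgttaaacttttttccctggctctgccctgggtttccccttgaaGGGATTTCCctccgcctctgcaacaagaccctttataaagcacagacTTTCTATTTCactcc
The CXCL10 stretch held GAAAGTGAAA from base -221, and NF-kB-like matches from -176, -122 and -110. CXCL9 held GAAATGGAAA from -171 and no NF-kB-like match, while VCAM1 held an interferon-response match on the reverse strand from -15 and NF-kB-like matches from -219 and -62. The interferon-response pattern was in 3.07% of all 27305 promoters of that length, in 18 of 28 promoters of the antiviral genes below and in 19 of 53 promoters of genes called higher by at least 5 on the log2 scale. The NF-kB-like pattern was in 17.1% of all promoters, in all 6 promoters of the neutrophil chemokine genes tested and in 26 of those 53. A match describes letters and is not evidence of binding.

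Beyond these ligands the 10 largest increases held IDO1, which breaks down tryptophan, CCL2 and CCL5, which attract monocytes and T cells, IFI30, a reductase of the antigen-loading compartment, CX3CL1, a membrane-bound chemokine, and the guanylate-binding proteins GBP4 and GBP5. IDO1, at chr8:39902275-39928444, measured 1204 and 2781 TPM with both cytokines against 0.168 and 0.199 TPM untreated (10.60 ± 1.27, adjusted p = 0.00610). CCL2, at chr17:34255218-34257203, measured 2484 and 3318 TPM with both cytokines against 1.17 and 5.53 TPM untreated (9.58 ± 0.60, adjusted p = 0.00180). Both genes were near the bottom of the scale in untreated cells and among the abundant transcripts in each treated line. CX3CL1, at chr16:57372458-57385048, had 323 and 1600.1 TPM with both cytokines against 0.0373 and 0.0444 TPM untreated (9.44 ± 0.89, adjusted p = 0.00396). CCL5, at chr17:35871491-35880793, had 1237 and 6005 TPM with both cytokines against 3.97 and 6.03 TPM untreated (8.85 ± 0.59, adjusted p = 0.00203). CX3CL1 and CCL5 were several times higher in treated TIME than in treated iHUVEC cells. IFI30, at chr19:18173162-18178117, had 1095 and 1672 TPM with both cytokines against 1.5 and 0.498 TPM untreated (9.45 ± 0.77, adjusted p = 0.00298). IDO1 lost the call without the untreated iHUVEC library (adjusted p = 0.0573).

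**Figure D1:**
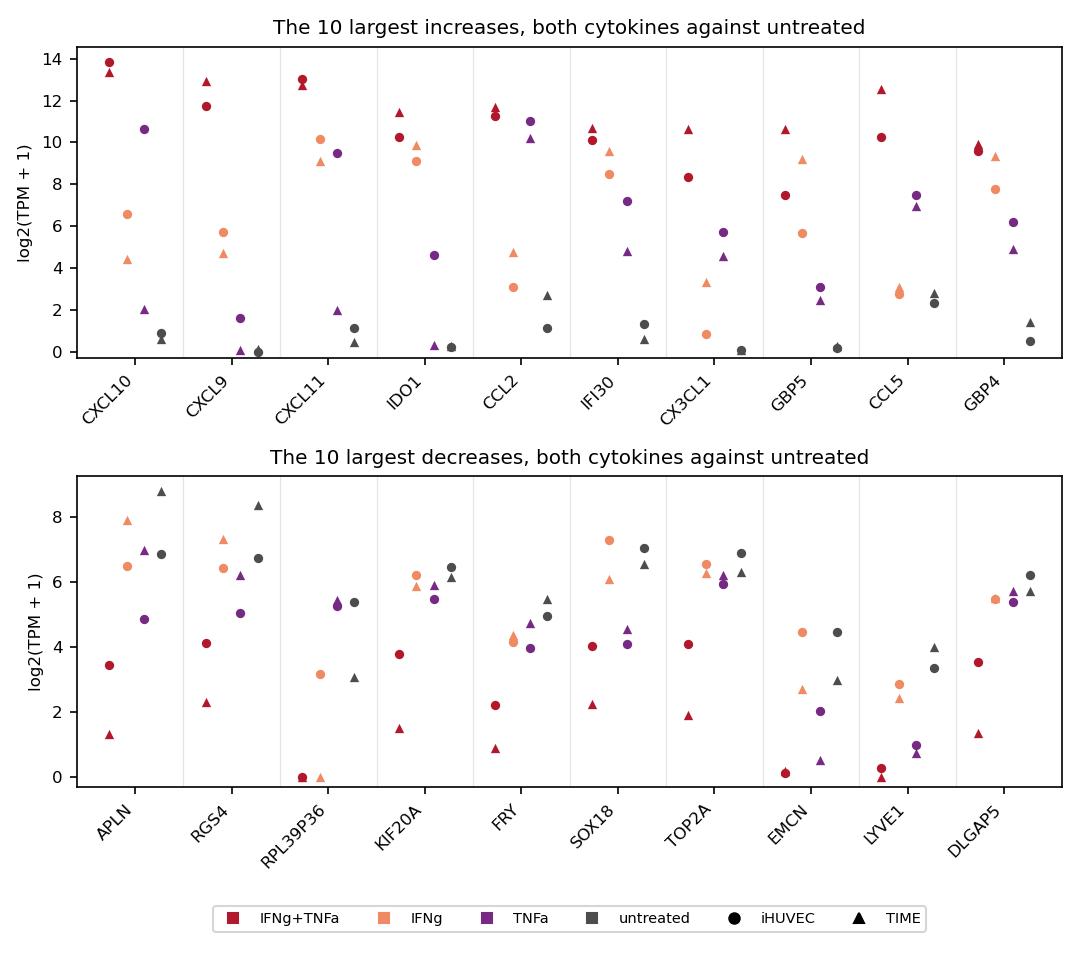
Level of the 10 genes with the largest increase (top) and the 10 with the largest decrease (bottom) in each endothelial library, as log2(TPM + 1), with colour for the condition and shape for the line. Within each line the treated library stands highest for the increases and lowest for the decreases, except that RPL39P36 was at 0 TPM in TIME with IFNg alone too. Across lines they overlap for GBP5, where TIME with IFNg alone is above treated iHUVEC.

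Chemokines for neutrophils and monocytes rose as well. All 6 tested neutrophil chemokine genes were called higher (6 of 6 against 9.28% of all genes), with a median change of 4.98, and 4, 6, 4 and 5 were called with 1 library left out. CXCL8, the main neutrophil attractant, measured 663 and 2170.1 TPM with both cytokines against 4.33 and 47.5 TPM untreated (6.22 ± 0.52, adjusted p = 0.00298). CXCL3 and CXCL2, close paralogs whose reads may be shared, had 80.2 and 127 TPM with both cytokines against 1.11 and 2.02 TPM untreated (5.34 ± 0.36, adjusted p = 0.00203) and 263 and 159 TPM with both cytokines against 3.21 and 8.21 TPM untreated (5.04 ± 0.53, adjusted p = 0.00454). These genes followed TNFa: TNFa alone gave 456 and 1041 TPM of CXCL8 and IFNg alone 4.12 and 8.25 TPM. With both cytokines 5 of the 6 were called above IFNg alone and 0 above TNFa alone. CXCL6 stood at 82.3 TPM in iHUVEC and 2.32 TPM in TIME with both cytokines, a wide gap between lines, against 0.406 and 0 TPM untreated.

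Among 10 tested CC and other chemokines 7 were called higher and 1 lower, against 9.28% and 26.3% of all genes (median 4.67). CCL8, a monocyte attractant, was listed at 0 in both untreated libraries and both TNFa libraries, at 0.131 and 0 TPM with IFNg alone and at 137 and 672 TPM with both (adjusted p = 0.00234). It was thus high only where both cytokines were present among the 8 endothelial libraries. CCL7 had 44.5 and 23.4 TPM with both cytokines against 0.285 and 0 TPM untreated and CCL20 43.8 and 10.8 TPM with both cytokines against 0.0908 and 0 TPM untreated, both called higher. The member called lower was CCL14, 2.46 and 0.165 TPM with both cytokines against 20.8 and 15.4 TPM untreated (-3.23 ± 0.36, adjusted p = 0.00524).

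Components of the IFNg pathway rose, to be set against the 9.28% of all genes called higher and 26.3% called lower. Of 11 tested genes of IFNg signalling 9 were called higher and 0 lower, with a median change of 1.10 (9, 5, 2 and 1 with 1 library left out). STAT2, a transcription factor of interferon signalling, measured 278 and 283 TPM with both cytokines against 22.8 and 21.4 TPM untreated (3.61 ± 0.59, adjusted p = 0.00992). SOCS1, a feedback inhibitor of the JAK kinases, had 18.1 and 157 TPM with both cytokines against 1.44 and 3.24 TPM untreated (4.09 ± 0.64, adjusted p = 0.00908), with the higher treated level in TIME cells. The receptor chain IFNGR1 did not pass (0.54 ± 0.18, adjusted p = 0.0612), while IFNGR2 was called higher (1.10 ± 0.27, adjusted p = 0.0267). STAT2 lost the call without the treated TIME library (adjusted p = 0.0531), without the untreated iHUVEC library (adjusted p = 0.0711) and STAT2 and SOCS1 without the untreated TIME library (adjusted p = 0.0678 and 0.0687).

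Interferon regulatory factors split by member. IRF1, which carries the IFNg signal to many target genes, had 770.1 and 938 TPM with both cytokines against 18.9 and 24.3 TPM untreated (5.25 ± 0.28, adjusted p = 0.00128). IRF8 had 9.43 and 6.57 TPM with both cytokines against 0 and 0.0275 TPM untreated (3.13 ± 0.29, adjusted p = 0.00375), and IRF4 1.3 and 12.4 TPM with both cytokines against 0 and 0.00722 TPM untreated (2.46 ± 0.67, adjusted p = 0.0339). IRF2 and IRF9 were also called higher, making 5 of 7 tested. IRF3, a constitutively expressed transcription factor of antiviral signalling, did not pass, at 96.3 and 67.6 TPM with both cytokines against 84.2 and 63.0 TPM untreated (0.15 ± 0.16, adjusted p = 0.505). IRF7 was listed at or near 0 in all 8 endothelial libraries, which can be a failed estimate. With 1 library left out, 4, 4, 3 and 4 of the list were called higher. IRF4 lost the call without the untreated iHUVEC library (adjusted p = 0.0975) and without the untreated TIME library (adjusted p = 0.185).

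Guanylate-binding proteins, GTPases that attack intracellular microbes, were all called higher (5 of 5, median 7.41). GBP1 measured 1765 and 3502 TPM with both cytokines against 6.37 and 28.1 TPM untreated (7.41 ± 0.68, adjusted p = 0.00381). GBP5 measured 180.1 and 1616 TPM with both cytokines against 0.119 and 0.190 TPM untreated (8.87 ± 1.05, adjusted p = 0.00609) and GBP4 767 and 959.6 TPM with both cytokines against 0.425 and 1.67 TPM untreated (8.78 ± 0.62, adjusted p = 0.00203). GBP1 was already high with IFNg alone, at 570.0 and 1761 TPM, against 161 and 76.1 TPM with TNFa alone. With both cytokines 0 of the 5 were called above IFNg alone and 4 above TNFa alone, and 5, 5, 5 and 4 were called against untreated with 1 library left out. GBP5 lost the call without the untreated TIME library (adjusted p = 0.0517).

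Antiviral interferon-stimulated genes rose almost without exception. Of 36 tested genes 35 were called higher and 0 lower, with a median change of 5.61 on the log2 scale, close to equal in the lines (5.34 in iHUVEC and 5.40 in TIME). With 1 library left out 34, 20, 2 and 8 were called. MX1, a GTPase that blocks influenza viruses, had 981 and 817 TPM with both cytokines against 4.36 and 0.405 TPM untreated (8.35 ± 0.86, adjusted p = 0.00452). RSAD2, which encodes viperin, had 288 and 175 TPM with both cytokines against 0.0493 and 0.0324 TPM untreated (7.76 ± 1.45, adjusted p = 0.0129), and IFITM1, a membrane barrier to virus entry with close paralogs, 2847 and 2294 TPM with both cytokines against 15.2 and 1.61 TPM untreated (8.62 ± 1.56, adjusted p = 0.0122). Treated and untreated libraries did not overlap in 36 of 36 genes, as was the case in 54.8% of all genes tested. Without the untreated iHUVEC library the adjusted p was 0.0860 for RSAD2 and 0.0718 for IFITM1, without the untreated TIME library 0.0678 and 0.0851, and without the treated TIME library 0.0685 and 0.0665.

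With single cytokines the levels of these genes differed between the lines, which was not tested with 1 library each. RSAD2 stood at 147 TPM in iHUVEC and 1.56 TPM in TIME with TNFa alone and at 1.85 TPM in iHUVEC and 2.86 TPM in TIME with IFNg alone. In iHUVEC the median difference of the list between both cytokines and TNFa alone was 0.42, and in TIME 2.99. Against IFNg alone the medians were 2.82 and 2.21, with all 36 genes higher in each line. Across both lines 15 of the 36 were called above IFNg alone (4.82% of all genes) and 0 above TNFa alone. IFNB1, the gene of interferon beta, picked for naming after its values were seen, stood at 9.46 and 0.525 TPM with both cytokines, 2.94 and 0.0887 TPM with TNFa alone and 0 in the other 4 endothelial libraries, and did not pass the test (2.0 ± 0.72, adjusted p = 0.0741).

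Genes that load peptides on MHC class I rose almost throughout. Of 20 tested 19 were called higher and 0 lower (median 2.72, and 19, 16, 10 and 13 with 1 library left out). TAP1, a subunit of the peptide transporter, measured 220.0 and 375 TPM with both cytokines against 2.11 and 7.54 TPM untreated (5.81 ± 0.61, adjusted p = 0.00467). PSMB9, an immunoproteasome subunit, measured 35.8 and 24.9 TPM with both cytokines against 0 and 1.44 TPM untreated (4.31 ± 0.57, adjusted p = 0.00697). HLA-B measured 19.7 and 5717 TPM with both cytokines against 0.296 and 213 TPM untreated (4.37 ± 0.45, adjusted p = 0.00454), with a wide gap between the lines in both conditions. HLA-C was at 0.104 and 2.10 TPM with both cytokines and did not pass (0.69 ± 0.36, adjusted p = 0.180). HLA genes are polymorphic and share reads, so their levels are uncertain. PSMB9 lost the call without the untreated iHUVEC library (adjusted p = 0.0522).

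In the MHC class II pathway the invariant chain rose and no class II chain was called. After median-of-ratios scaling 6 of the 11 tested genes were higher and 0 lower. CD74, the invariant chain, measured 372 and 680.0 TPM with both cytokines against 0 and 0.898 TPM untreated (8.51 ± 0.25, adjusted p = 3.67e-04), the lowest adjusted p of the comparison. CTSS, the protease that trims it, measured 952 and 1269 TPM with both cytokines against 6.59 and 17.5 TPM untreated (6.54 ± 0.36, adjusted p = 0.00133). In all 5 of 11 tested genes were called higher and 1 lower, with 6, 4, 4 and 4 higher with 1 library left out. HLA-DRA was at 0 in both treated libraries, HLA-DMA and HLA-DMB were at 0 in all 8 endothelial libraries, and HLA-DPB1 and HLA-DPA1 did not pass. Genes at 0 in whole libraries can be failed estimates, and HLA levels are uncertain, so these values do not show that class II chains were absent or unchanged. CIITA, the class II master regulator, picked for naming after its values were seen, had 15.0 and 20.1 TPM with both cytokines against 0.562 and 0.279 TPM untreated (3.70 ± 0.21, adjusted p = 0.00133) and 39.4 and 44.4 TPM with IFNg alone. Both cytokines gave less CIITA than IFNg alone, a log2 difference of -1.22 (adjusted p = 0.0236).

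Most NF-kB genes rose, with 15 called higher and 0 lower after median-of-ratios scaling. Of 20 tested NF-kB subunits and inhibitors 14 were called higher and 1 lower (median 1.5, and 15, 13, 9 and 9 higher with 1 library left out). TNFAIP3, which encodes the ubiquitin editor A20, had 440.4 and 229 TPM with both cytokines against 8.46 and 3.53 TPM untreated (5.60 ± 0.34, adjusted p = 0.00165). NFKBIA, the inhibitor that holds NF-kB in the cytoplasm, had 317 and 524 TPM with both cytokines against 30.9 and 51.3 TPM untreated (3.32 ± 0.19, adjusted p = 0.00133), and the subunit gene RELB 51.8 and 54.2 TPM with both cytokines against 3.65 and 6.54 TPM untreated (3.19 ± 0.23, adjusted p = 0.00217). All 3 were clear of the untreated libraries in both lines and were called with any of the 4 libraries left out. With both cytokines 13 of the 20 were called above IFNg alone and 1 above TNFa alone, and the median difference from TNFa alone was 0.01 in iHUVEC and 0.14 in TIME.

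TNF receptors and adaptors showed 10 of 16 called higher and 0 lower (median 0.69, and 10, 6, 2 and 2 higher with 1 library left out). BIRC3, a ubiquitin ligase of the receptor complex, had 245 and 216 TPM with both cytokines against 0.474 and 0.949 TPM untreated (7.09 ± 0.49, adjusted p = 0.00203). TRAF1, an adaptor of TNF family receptors, had 61.5 and 159.6 TPM with both cytokines against 0.294 and 1.08 TPM untreated (5.93 ± 0.26, adjusted p = 0.00102), and TRADD, which binds TNFR1, 58.1 and 99.3 TPM with both cytokines against 12.4 and 18.2 TPM untreated (2.26 ± 0.31, adjusted p = 0.00725). The receptors did not pass: TNFRSF1A, which encodes TNFR1, changed by 0.28 ± 0.14 (adjusted p = 0.153) and TNFRSF1B by 0.49 ± 0.18 (adjusted p = 0.0755). TRADD lost the call without the untreated iHUVEC library (adjusted p = 0.0609) and without the untreated TIME library (adjusted p = 0.0604).

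**Figure D2:**
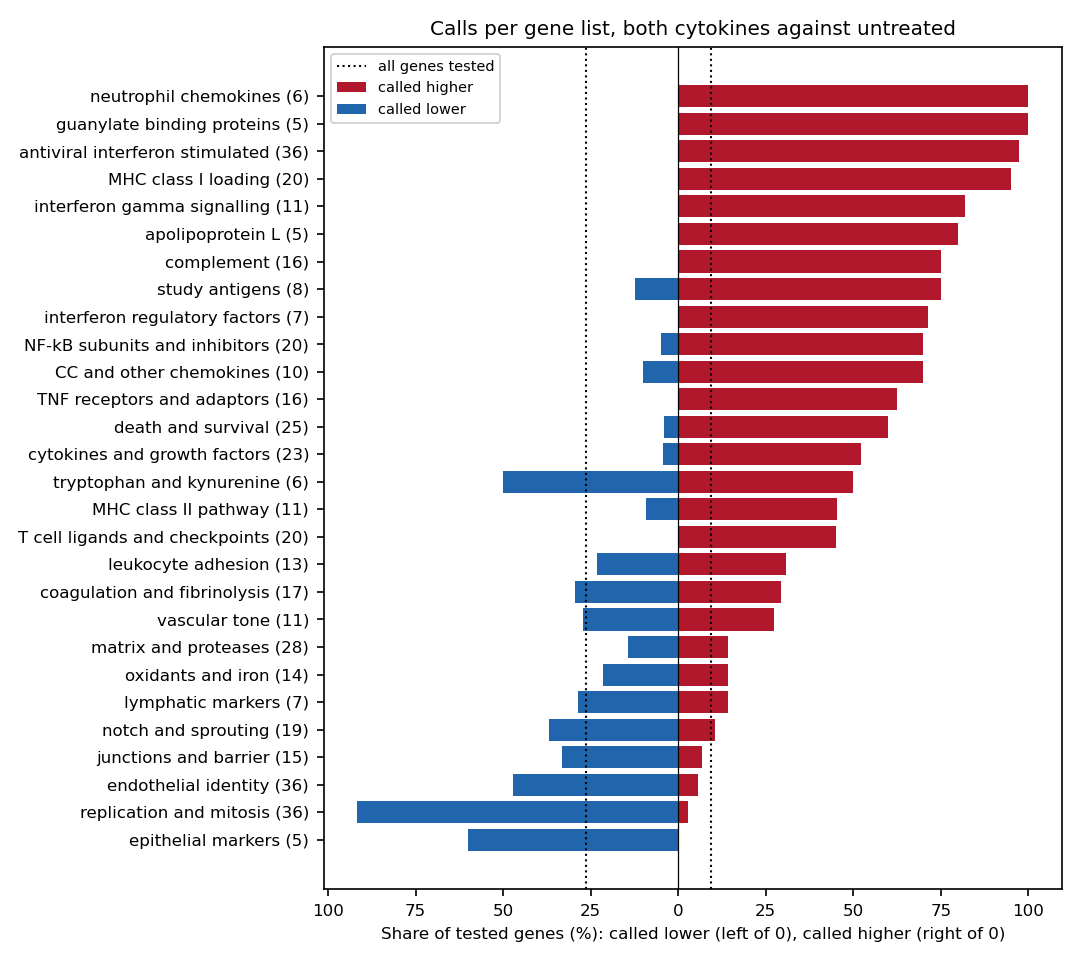
Share of the tested genes of each list called higher (red, right of 0) or lower (blue, left of 0) with both cytokines against untreated, with the number tested in brackets and dotted lines at the shares over all genes, 9.28% higher and 26.3% lower. Interferon, antigen presentation and chemokine lists lie far right of the dotted line, and replication and mitosis genes far left.

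Some leukocyte adhesion molecules rose steeply. The share called lower was near the 26.3% of all genes, with 2 of 13 lower after median-of-ratios scaling. ICAM1, which binds leukocyte integrins, measured 912 and 1577 TPM with both cytokines against 13.8 and 6.16 TPM untreated (6.86 ± 0.47, adjusted p = 0.00203). VCAM1, which captures lymphocytes and monocytes, measured 147 and 7.88 TPM with both cytokines against 0.0911 and 0 TPM untreated (5.12 ± 1.24, adjusted p = 0.0252), far more in treated iHUVEC than in treated TIME cells. SELE, the endothelial selectin, measured 11 and 11.2 TPM with both cytokines against 0.0468 and 0 TPM untreated (3.56 ± 0.59, adjusted p = 0.00997). Of 13 tested members 4 were called higher and 3 lower (9.28% and 26.3% of all genes), and 4, 1, 1 and 1 higher with 1 library left out. ICAM2, an adhesion molecule of resting endothelium picked for naming after its values were seen, was among those called lower, with 233 and 90.6 TPM with both cytokines against 434 and 321 TPM untreated (-1.35 ± 0.24, adjusted p = 0.0115). VCAM1 and SELE were not called without either untreated library (adjusted p = 0.141 and 0.0678 for VCAM1, 0.0722 and 0.0632 for SELE). Without the treated TIME library the adjusted p was 0.0557 for VCAM1 and 0.0538 for SELE, and VCAM1 was also lost without the treated iHUVEC library (adjusted p = 0.103).

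Cytokine genes were called higher in 12 of 23 tested and lower in 1 (median 2.0, and 12, 11, 7 and 7 higher with 1 library left out). IL32 was the most abundant, with 6515 and 5016 TPM with both cytokines against 27.6 and 53.2 TPM untreated (7.18 ± 0.37, adjusted p = 0.00128). EBI3, a subunit shared by several interleukins, had 74.1 and 222 TPM with both cytokines against 0.694 and 0.0809 TPM untreated (6.58 ± 0.61, adjusted p = 0.00382), and CSF1, the macrophage growth factor, 85.5 and 123 TPM with both cytokines against 3.68 and 7.50 TPM untreated (4.04 ± 0.32, adjusted p = 0.00276). CSF2, the granulocyte-macrophage growth factor, was listed at 0 untreated and with IFNg alone, and stood at 1.52 and 2.78 TPM with both cytokines (adjusted p = 0.0213), below 15.9 and 42.6 TPM with TNFa alone. That drop against TNFa alone was -3.14 ± 0.37, adjusted p = 0.0384. CSF2 lost the call without the treated iHUVEC library (adjusted p = 0.0518), without the treated TIME library (adjusted p = 0.0939), without the untreated iHUVEC library (adjusted p = 0.0722) and without the untreated TIME library (adjusted p = 0.139).

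Ligands for T cells and other lymphocytes were called higher in 9 of 20 tested and lower in 0 (median 0.94, and 10, 9, 5 and 6 higher with 1 library left out). LGALS9, a galectin that binds TIM-3 on T cells, had 1066 and 1301 TPM with both cytokines against 6.18 and 8.71 TPM untreated (7.14 ± 0.57, adjusted p = 0.00286). TNFSF10, the death ligand TRAIL, had 786 and 433 TPM with both cytokines against 9.70 and 1.01 TPM untreated (6.98 ± 0.77, adjusted p = 0.00519), and TNFSF13B, the B cell survival factor BAFF, 117 and 131 TPM with both cytokines against 0.0446 and 0.110 TPM untreated (6.86 ± 0.89, adjusted p = 0.00684). CD274, which encodes PD-L1, had 74.0 and 131 TPM with both cytokines against 6.51 and 16.8 TPM untreated (3.11 ± 0.25, adjusted p = 0.00298) and was above IFNg alone (1.27 ± 0.25, adjusted p = 0.0290) and TNFa alone (2.68 ± 0.25, adjusted p = 0.0252). CD80 and CD86, the ligands of the T cell co-receptor CD28, were under 0.1 TPM in both treated libraries. TNFSF9, a costimulatory ligand, did not pass (-0.21 ± 0.23, adjusted p = 0.503). TNFSF13B lost the call without the untreated iHUVEC library (adjusted p = 0.0591).

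**Figure D3:**
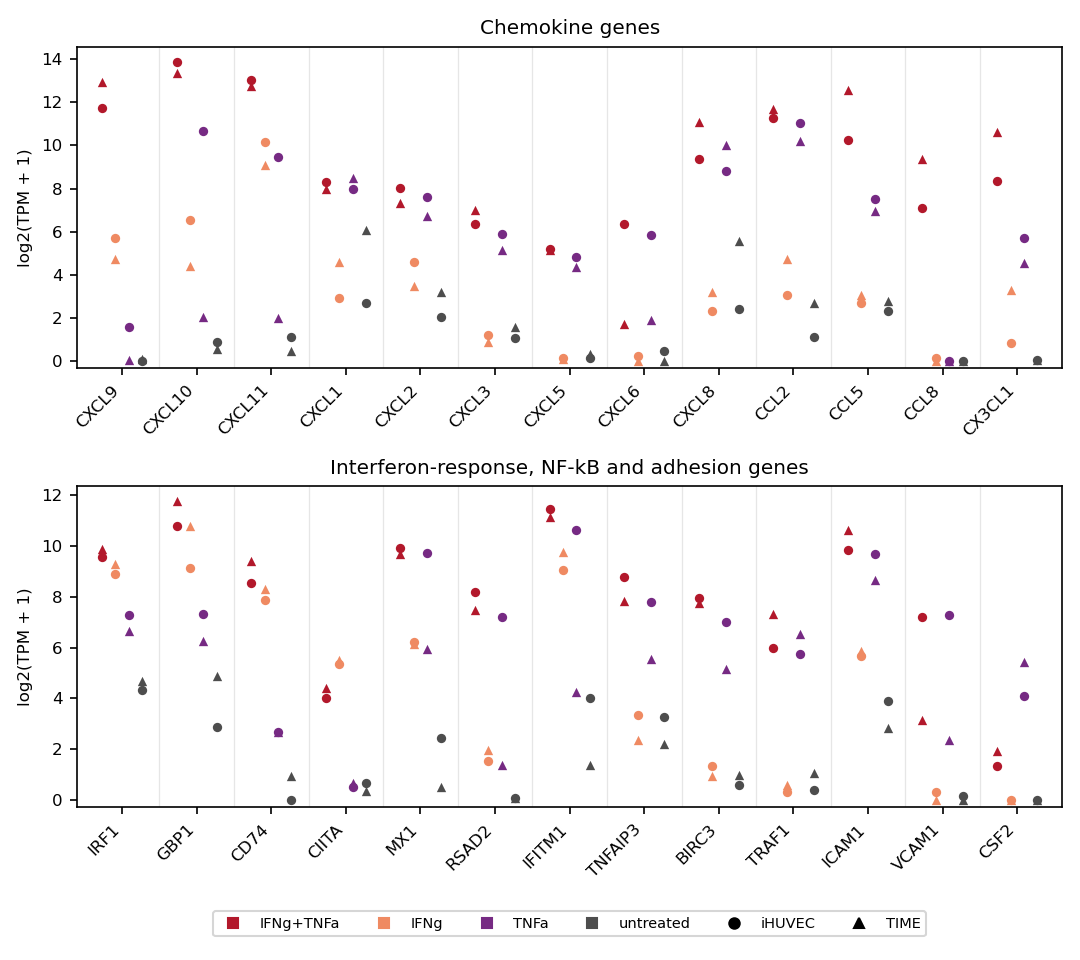
Level of chemokine genes (top) and of interferon-response, NF-kB and adhesion genes (bottom) in the 8 endothelial libraries as log2(TPM + 1), by condition (colour) and line (shape). CXCL9 and CCL8 are far higher with both cytokines than in any other library, neutrophil chemokines are about as high with TNFa alone, and CIITA is highest with IFNg alone and CSF2 with TNFa alone.

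Enzymes of tryptophan use moved in opposite directions. IDO1 (above) and KYNU, which acts further along the kynurenine route, rose, KYNU with 14.1 and 165 TPM with both cytokines against 0.187 and 6.68 TPM untreated (4.05 ± 0.27, adjusted p = 0.00203). WARS1, the tryptophan tRNA synthetase, rose to 4995 and 4687 TPM with both cytokines, against 141 and 193 TPM untreated (4.86 ± 0.34, adjusted p = 0.00203). The kynurenine enzymes AFMID (-1.90 ± 0.29, adjusted p = 0.00837) and KYAT1 (-1.69 ± 0.23, adjusted p = 0.00756) fell, as did SLC7A5, a tryptophan transporter (-1.24 ± 0.34, adjusted p = 0.0366). Thus 3 of 6 tested were higher and 3 lower, against 9.28% and 26.3% of all genes. After median-of-ratios scaling 2 were lower. With 1 library left out 3, 3, 2 and 3 were called higher and 2, 3, 0 and 1 lower.

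Complement genes rose in 12 of 16 tested with 0 lower (median 2.64, and 13, 8, 3 and 2 higher with 1 library left out). The proteases of the first component led: C1S had 211 and 374 TPM with both cytokines against 0.220 and 0.129 TPM untreated (7.91 ± 1.11, adjusted p = 0.00764) and C1R 258 and 416 TPM with both cytokines against 1.83 and 0.996 TPM untreated (7.11 ± 0.81, adjusted p = 0.00558). SERPING1, which inhibits both proteases, was listed at 0 in the untreated libraries and stood at 46.0 and 192 TPM with both cytokines (adjusted p = 0.00745). C1S was not called without the untreated iHUVEC library (adjusted p = 0.0627) or the untreated TIME library (adjusted p = 0.0595). The related pair C4A and C4B, which share reads, did not pass. C1R and SERPING1 lost the call without the untreated TIME library (adjusted p = 0.0507 and 0.0601).

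Apolipoprotein L genes, close paralogs on chromosome 22 with roles in defence against parasites and bacteria, were higher in 4 of 5 tested (4, 4, 1 and 3 with 1 library left out). APOL1 had 576 and 672 TPM with both cytokines against 7.38 and 14.0 TPM untreated (5.79 ± 0.70, adjusted p = 0.00622), APOL6 40.2 and 51.9 TPM with both cytokines against 0.542 and 3.05 TPM untreated (4.22 ± 0.50, adjusted p = 0.00610) and APOL3 474 and 481 TPM with both cytokines against 21.2 and 32.7 TPM untreated (4.13 ± 0.32, adjusted p = 0.00265). SOD2, the mitochondrial superoxide dismutase (ENSG00000112096), rose to 2361 and 3127 TPM with both cytokines, against 38.8 and 37.1 TPM untreated (6.12 ± 0.37, adjusted p = 0.00165). Its level with TNFa alone was 553 and 273 TPM. The iron storage gene FTL fell (-1.09 ± 0.29, adjusted p = 0.0335), and so did STEAP3, an iron reductase (-1.66 ± 0.34, adjusted p = 0.0169). After median-of-ratios scaling the adjusted p of FTL was 0.0877. Of 14 tested genes of oxidants and iron 2 were higher and 3 lower, below the 26.3% lower of all genes, with 1 lower after median-of-ratios scaling and 3, 2, 0 and 0 lower with 1 library left out. FTL lost the call without the treated TIME library (adjusted p = 0.125), APOL1, APOL6, FTL and STEAP3 without the untreated iHUVEC library (adjusted p = 0.0576, 0.0503, 0.0737 and 0.0628) and FTL and STEAP3 without the untreated TIME library (adjusted p = 0.226 and 0.118).

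Genes of cell death and survival rose on both sides, to be set against the 9.28% of all genes called higher and 26.3% called lower. Of 25 tested 15 were called higher and 1 lower (median 0.71), but with 1 library left out 12, 7, 0 and 4 were called higher. CASP1, the inflammasome protease, had 158 and 171 TPM with both cytokines against 4.44 and 13.7 TPM untreated (4.21 ± 0.58, adjusted p = 0.00745). FAS, a death receptor, had 34.5 and 41.1 TPM with both cytokines against 1.21 and 6.85 TPM untreated (3.22 ± 0.48, adjusted p = 0.00809), and PMAIP1, which encodes the death-promoting protein NOXA, 162 and 314 TPM with both cytokines against 18.2 and 48.3 TPM untreated (2.88 ± 0.38, adjusted p = 0.00684). The survival genes BIRC3 (above) and BCL2A1 rose too, BCL2A1 with 34.8 and 2.14 TPM with both cytokines against 1.70 and 0 TPM untreated (2.69 ± 0.47, adjusted p = 0.0112). The member called lower was BAX, a death effector (-0.75 ± 0.18, adjusted p = 0.0252), but after median-of-ratios scaling 0 of the list were lower. CASP1, FAS and PMAIP1 lost the call without the untreated iHUVEC library (adjusted p = 0.0605, 0.0591 and 0.0605) and PMAIP1 without the untreated TIME library (adjusted p = 0.0568).

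DNA replication and mitosis genes fell together. Of 36 tested 33 were called lower and 1 higher, against 26.3% and 9.28% of all genes, with a median change of -2.50 (-2.0 in iHUVEC and -3.36 in TIME). TOP2A, which untangles chromosomes, measured 15.9 TPM in iHUVEC and 2.77 TPM in TIME cells given both cytokines, against 118 and 77.5 TPM in the untreated lines (-3.60 ± 0.53, adjusted p = 0.00796). KIF20A, a motor of cell division, measured 12.7 and 1.84 TPM with both cytokines against 87.0 and 69.8 TPM untreated (-3.66 ± 0.58, adjusted p = 0.00942), and PLK1, a mitotic kinase, 20.8 and 3.66 TPM with both cytokines against 121 and 93.6 TPM untreated (-3.42 ± 0.57, adjusted p = 0.0105). All 3 genes were far below the untreated level in each line, and lowest in treated TIME cells. The member called higher was CDKN1A, the cell cycle inhibitor p21, with 166 and 319 TPM with both cytokines against 56.7 and 151 TPM untreated (1.31 ± 0.34, adjusted p = 0.0308). After median-of-ratios scaling 32 were lower and 1 higher. With 1 library left out 32, 32, 1 and 1 were called lower, while the median change stayed between -1.86 and -3.31. TOP2A, KIF20A and PLK1 lost the call without the untreated iHUVEC library (adjusted p = 0.0628, 0.0636 and 0.0648) and without the untreated TIME library (adjusted p = 0.0671, 0.0756 and 0.0803).

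Neither cytokine alone came near this fall. TOP2A stood at 93.3 and 75.9 TPM with IFNg alone and 59.9 and 72.2 TPM with TNFa alone, close to the untreated level in TIME. The median change of the list against untreated was -0.33 and -0.12 with IFNg alone and -0.60 and -0.11 with TNFa alone. Against IFNg alone 32 of the 36 were called lower with both cytokines, and against TNFa alone 31.

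The TOP2A promoter is shown as an example of the falling genes, from base -250 to -55 at chr17:40417951-40418146 on GRCh38.p14 (minus strand), with TTTGAA, a pattern of cell cycle gene promoters, and CCAAT in capitals on either strand.
TOP2A: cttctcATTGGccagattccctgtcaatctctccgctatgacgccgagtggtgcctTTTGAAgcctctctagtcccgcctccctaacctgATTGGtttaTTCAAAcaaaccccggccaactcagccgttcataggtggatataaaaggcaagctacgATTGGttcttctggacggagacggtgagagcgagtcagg
TTTGAA matches began at -194 and, on the reverse strand, at -151, and CCAAT matches, all on the reverse strand, at -244, -160 and -93. CCAAT was in 33.0% of all 27305 promoters of 250 bases, in 22 of 29 promoters of this list and in 109 of 196 promoters of genes called lower by at least 2 on the log2 scale. TTTGAA was in 13.6% of all promoters, 9 of the 29 and 48 of the 196. The interferon-response pattern was in 0 of the 29.

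Genes of endothelial identity fell in part. Of 36 tested 17 were called lower and 2 higher, against 26.3% and 9.28% of all genes, with a median of -0.62. After median-of-ratios scaling 11 were lower and 3 higher, against 12.1% and 14.1% of all genes, with a median of -0.31. SOX18, a transcription factor of vessel development, had 15.3 and 3.74 TPM with both cytokines against 129.5 and 91.6 TPM untreated (-3.64 ± 0.49, adjusted p = 0.00719). EMCN, the sialomucin endomucin of the cell surface, had 0.0899 and 0.155 TPM with both cytokines against 21.2 and 6.93 TPM untreated (-3.56 ± 0.45, adjusted p = 0.00640), near 0 in both treated lines. KLF4, a factor induced by blood flow, was one of the 2 called higher, with 12.2 and 5.85 TPM with both cytokines against 2.55 and 0.677 TPM untreated (1.96 ± 0.44, adjusted p = 0.0205). With 1 library left out 15, 13, 1 and 1 were called lower. Neither SOX18 nor EMCN was called without the untreated iHUVEC library (adjusted p = 0.0585 and 0.0591) or the untreated TIME library (adjusted p = 0.0625 and 0.0506). KLF4 lost the call without the treated iHUVEC library (adjusted p = 0.0508), without the treated TIME library (adjusted p = 0.0938), without the untreated iHUVEC library (adjusted p = 0.103) and without the untreated TIME library (adjusted p = 0.112).

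PECAM1 (CD31), picked with the next 3 genes after their values were seen, had 305 and 165 TPM with both cytokines against 528 and 475 TPM untreated (-1.16 ± 0.20, adjusted p = 0.0108). VWF, the clotting factor carrier of endothelial granules, had 99.8 and 7.49 TPM with both cytokines against 254 and 26.3 TPM untreated (-1.51 ± 0.19, adjusted p = 0.00623). CDH5, the cadherin of endothelial junctions, had 324 and 216 TPM with both cytokines against 392 and 417 TPM untreated (-0.61 ± 0.18, adjusted p = 0.0436), but with median-of-ratios scaling its adjusted p was 0.218. KDR, the main VEGF receptor, did not pass (0.17 ± 0.19, adjusted p = 0.494). IFNg alone left the list near its untreated level, with medians of 0.07 and 0.01, and TNFa alone gave -0.18 and -0.26. With both cytokines 16 of the 36 were called below IFNg alone (10.7% of all genes) and 8 below TNFa alone (6.57% of all genes).

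**Figure D4:**
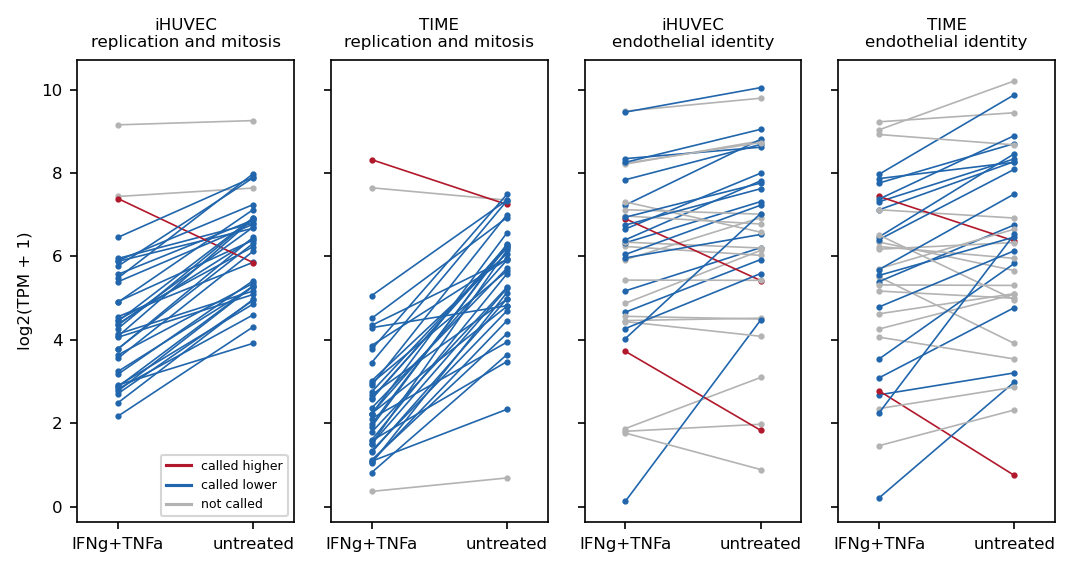
Each line joins the level of 1 gene, as log2(TPM + 1), with both cytokines (left) and untreated (right), for replication and mitosis genes and for endothelial identity genes in iHUVEC and TIME cells. Blue lines (called lower) fill the mitosis panels, 33 of 36 genes, and run in the steeper slopes in TIME, whereas the identity panels mix 17 blue, 2 red and 17 grey lines.

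Sprouting and Notch genes held the largest fall of the comparison. APLN, the peptide ligand apelin of sprouting tip cells, at chrX:129645259-129654937, measured 10.0 TPM in iHUVEC and 1.49 TPM in TIME cells given both cytokines, against 113 and 445 TPM in the untreated lines (-5.43 ± 1.00, adjusted p = 0.0126). Its level was 88.9 and 239 TPM with IFNg alone and 27.7 and 125 TPM with TNFa alone. The Notch target genes NRARP and HES1 fell too, NRARP with 1.90 and 4.74 TPM with both cytokines against 15.0 and 43.2 TPM untreated (-2.70 ± 0.34, adjusted p = 0.00640) and HES1 with 2.30 and 4.84 TPM with both cytokines against 9.73 and 34.5 TPM untreated (-2.15 ± 0.24, adjusted p = 0.00524). Of 19 tested 7 were called lower and 2 higher (26.3% and 9.28% of all genes), 5 were lower after median-of-ratios scaling, and 8, 5, 2 and 2 lower with 1 library left out. APLN had an adjusted p of 0.0637 without the untreated iHUVEC and 0.0917 without the untreated TIME library. NRARP lost the call without the untreated iHUVEC library (adjusted p = 0.0587) and without the untreated TIME library (adjusted p = 0.0572).

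Lymphatic markers showed 2 of 7 tested lower and 1 higher, near the 26.3% lower of all genes. After median-of-ratios scaling 1 was lower, with an adjusted p of 0.0859 for FOXC2, and with 1 library left out 3, 1, 1 and 1 were lower. LYVE1, the hyaluronan receptor of lymphatic vessels, had 0.207 and 0 TPM with both cytokines against 9.19 and 14.9 TPM untreated (-3.54 ± 0.30, adjusted p = 0.00323) and was called with any of the 4 libraries left out. FOXC2, a factor of lymphatic valves, had 24.0 and 13.8 TPM with both cytokines against 34.1 and 28.5 TPM untreated (-0.74 ± 0.17, adjusted p = 0.0225), and RELN, which encodes the matrix protein reelin, 3.59 and 13.7 TPM with both cytokines against 1.56 and 7.53 TPM untreated (0.81 ± 0.22, adjusted p = 0.0320). PROX1, the defining factor of lymphatic endothelium, was at 3.56 and 0.247 TPM with both cytokines and 1.90 and 0.696 TPM untreated and did not pass. FOXC2 and RELN lost the call without the treated TIME library (adjusted p = 0.0968 and 0.142), without the untreated iHUVEC library (adjusted p = 0.0835 and 0.191) and without the untreated TIME library (adjusted p = 0.169 and 0.106).

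Junction genes were called lower in 5 of 15 tested and higher in 1, against 26.3% lower and 9.28% higher of all genes. ESAM, an adhesion molecule of tight junctions, had 83.2 and 87.4 TPM with both cytokines against 224 and 351 TPM untreated (-1.71 ± 0.20, adjusted p = 0.00579), and CGNL1, a junction-linked scaffold, 12.6 and 1.81 TPM with both cytokines against 27.3 and 5.80 TPM untreated (-1.17 ± 0.23, adjusted p = 0.0151). CDH2, N-cadherin, rose (0.93 ± 0.19, adjusted p = 0.0171). After median-of-ratios scaling 2 were lower and 2 higher, and with 1 library left out 4, 1, 0 and 0 were lower. CLDN5 of the tight junction did not pass, at 166 and 52.0 TPM with both cytokines against 244 and 79.0 TPM untreated (-0.58 ± 0.24, adjusted p = 0.106). CGNL1 and CDH2 lost the call without the treated TIME library (adjusted p = 0.0719 and 0.0813), ESAM, CGNL1 and CDH2 without the untreated iHUVEC library (adjusted p = 0.0504, 0.0946 and 0.120) and without the untreated TIME library (adjusted p = 0.0582, 0.0967 and 0.0784).

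Remaining genes among the 10 largest decreases were RGS4, a regulator of G protein signalling, FRY, a protein of cell shape and spindle control, DLGAP5, a spindle protein, and the processed pseudogene RPL39P36. RGS4, at chr1:163068775-163076802, had 16.2 and 3.99 TPM with both cytokines against 104 and 327 TPM untreated (-4.33 ± 0.77, adjusted p = 0.0119). FRY had 3.62 and 0.867 TPM with both cytokines against 29.9 and 43.7 TPM untreated (-3.66 ± 0.48, adjusted p = 0.00691) and DLGAP5 10.7 and 1.54 TPM with both cytokines against 72.5 and 51.6 TPM untreated (-3.51 ± 0.57, adjusted p = 0.00990). All of them were far below the untreated level in both lines. RPL39P36 was listed at 0 in both treated libraries and at 40.5 and 7.52 TPM untreated, and its value is uncertain because it can share reads with its parent gene. RPL39P36 lost the call without the treated iHUVEC library (adjusted p = 0.0517), RGS4, FRY, DLGAP5 and RPL39P36 without the untreated iHUVEC library (adjusted p = 0.0591, 0.0522, 0.0660 and 0.0954) and without the untreated TIME library (adjusted p = 0.0870, 0.0604, 0.0756 and 0.0715).

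Vascular tone genes changed in both directions, with 3 of 11 tested higher and 3 lower, near the 26.3% lower of all genes (4, 2, 0 and 0 higher and 2, 3, 1 and 1 lower with 1 library left out). PTGS2, the inducible cyclooxygenase, had 171 and 238 TPM with both cytokines against 7.61 and 0.979 TPM untreated (5.62 ± 0.95, adjusted p = 0.0108). GCH1, which makes the nitric oxide synthase cofactor tetrahydrobiopterin, had 78.5 and 139.5 TPM with both cytokines against 3.46 and 1.31 TPM untreated (5.04 ± 0.71, adjusted p = 0.00764), while the endothelial synthase itself, NOS3, had 18.3 and 14.0 TPM with both cytokines against 127 and 62.4 TPM untreated (-2.41 ± 0.18, adjusted p = 0.00265). NOS3 was called with any of the 4 libraries left out, whereas PTGS2 and GCH1 were lost without either untreated library (adjusted p = 0.0684 and 0.0784 for PTGS2, 0.0587 and 0.0649 for GCH1). With TNFa alone NOS3 stood at 34.2 and 23.2 TPM and with IFNg alone at 143 and 84.3 TPM.

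Coagulation genes showed 5 of 17 tested higher and 5 lower, against 9.28% higher and 26.3% lower of all genes, with a median of -0.14 that was 0.17 after median-of-ratios scaling. Leaving out 1 library gave 6, 1, 0 and 1 higher and 7, 4, 1 and 0 lower. THBD, thrombomodulin, a brake on clotting, had 6.11 and 2.11 TPM with both cytokines against 48.4 and 10.7 TPM untreated (-2.35 ± 0.33, adjusted p = 0.00756). TFPI2, a protease inhibitor, had 796 and 479.9 TPM with both cytokines against 165 and 120.1 TPM untreated (2.13 ± 0.45, adjusted p = 0.0175), and ADTRP, a regulator of the tissue factor pathway inhibitor, 9.79 and 4.55 TPM with both cytokines against 24.2 and 42.2 TPM untreated (-2.09 ± 0.43, adjusted p = 0.0165). F3, tissue factor itself, stood at 1.53 TPM in iHUVEC and 126 TPM in TIME with both cytokines and did not pass (3.31 ± 1.32, adjusted p = 0.0948), with a wide gap between the treated lines. None of THBD, TFPI2 and ADTRP was called without either untreated library, with adjusted p from 0.0609 to 0.117, and TFPI2 was also lost without the treated TIME library (adjusted p = 0.0888).

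Matrix genes showed 4 of 28 tested higher and 4 lower (median 0.11), against 9.28% and 26.3% of all genes. MMP10, a stromelysin, had 11.9 and 197 TPM with both cytokines against 1.18 and 7.85 TPM untreated (3.53 ± 0.53, adjusted p = 0.00836). With TNFa alone it stood at 125 and 511 TPM, and the difference of both cytokines from TNFa alone did not pass (-2.33 ± 0.53, adjusted p = 0.0502). ADAMTS4, which cuts proteoglycans, had 42.7 and 33.0 TPM with both cytokines against 19.7 and 5.75 TPM untreated (1.71 ± 0.35, adjusted p = 0.0162), and COL4A1, a collagen of the vessel basement membrane, 79.1 and 905 TPM with both cytokines against 30.9 and 222 TPM untreated (1.68 ± 0.21, adjusted p = 0.00627). None of the list was called without the untreated iHUVEC or the untreated TIME library. MMP10, ADAMTS4 and COL4A1 lost the call without the untreated iHUVEC library (adjusted p = 0.0605, 0.0749 and 0.0563) and without the untreated TIME library (adjusted p = 0.0713, 0.113 and 0.0604).

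A list of surface antigens of leukemia and endothelial cells was called higher for most members, against 9.28% of all genes. Of 8 tested 6 were called higher and 1 lower (5, 5, 2 and 1 higher with 1 library left out). CD38, an ectoenzyme, had 21.9 and 85.8 TPM with both cytokines against 0.0367 and 0.0204 TPM untreated (5.44 ± 0.72, adjusted p = 0.00696). IL3RA, the interleukin 3 receptor chain CD123, had 23.8 and 49.0 TPM with both cytokines against 2.69 and 0.943 TPM untreated (3.72 ± 0.49, adjusted p = 0.00694), and CD47, the signal that restrains phagocytosis, 219 and 271 TPM with both cytokines against 41.1 and 29.2 TPM untreated (2.78 ± 0.29, adjusted p = 0.00458). CD93, a lectin-like receptor of endothelium and myeloid cells, was the one called lower, with 79.2 and 138 TPM with both cytokines against 158 and 308 TPM untreated (-1.07 ± 0.16, adjusted p = 0.00837). IL3RA was above IFNg alone (2.07 ± 0.49, adjusted p = 0.0416), and the difference from TNFa alone did not pass (1.37 ± 0.49, adjusted p = 0.110). CD33, CLEC12A and HAVCR2 were under 0.4 TPM in both treated libraries. CD38 and CD93 lost the call without the untreated iHUVEC library (adjusted p = 0.0585 and 0.0619) and CD38, IL3RA and CD93 without the untreated TIME library (adjusted p = 0.0594, 0.0594 and 0.0814).

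Markers of other cell types were examined beside these results. The epithelial list had 5 tested members, of which the keratin genes KRT18, KRT7 and KRT8 were called lower, KRT18 with 60.2 and 25 TPM with both cytokines against 325 and 215 TPM untreated (-2.74 ± 0.28, adjusted p = 0.00454) and KRT7 with 4.99 and 98.9 TPM with both cytokines against 19.9 and 862 TPM untreated (-2.46 ± 0.30, adjusted p = 0.00623). The other 2 tested members did not pass. All 12 genes of the list summed to 90.6 and 189 TPM with both cytokines and 405 and 1182 TPM untreated. Of the 12, 7 in iHUVEC and 8 in TIME were under 1 TPM in either condition, among them CDH1, EPCAM, KRT5 and KRT14. The fibroblast and mural list summed to 289.6 and 56.4 TPM with both cytokines and 857 and 35.1 TPM untreated, most of it RGS5 in iHUVEC (265 and 0.557 TPM with both cytokines against 854 and 3.69 TPM untreated). In untreated TIME the highest member was FAP, at 18.3 TPM. Of the 14 genes 11 were under 1 TPM in each treated library, and COL3A1 was at 0 in both. Among the hematopoietic markers CD68, a lysosomal protein of macrophages, was called higher (1.61 ± 0.48, adjusted p = 0.0428). PDGFRA (3.49 and 14.7 TPM with both cytokines against 0.349 and 0.328 TPM untreated) and ACTA2 (17.4 and 22.9 TPM with both cytokines against 1.19 and 12.3 TPM untreated) were called higher, and their part in the other results was not tested. ACTA2 lost the call without the treated iHUVEC library (adjusted p = 0.119), PDGFRA and CD68 without the treated TIME library (adjusted p = 0.0713 and 0.212), KRT8, RGS5, ACTA2 and CD68 without the untreated iHUVEC library (adjusted p = 0.0605, 0.0745, 0.105 and 0.187) and KRT8, RGS5, PDGFRA and CD68 without the untreated TIME library (adjusted p = 0.0523, 0.0803, 0.0594 and 0.143).

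Set directly against IFNg alone, both cytokines gave 2049 called genes (15.6%), 634 higher (4.82%) and 1415 lower (10.7%). CCL5 led, with 1237 and 6005 TPM with both cytokines against 5.63 and 7.41 TPM with IFNg alone (8.51 ± 0.59, adjusted p = 0.00360), followed by CCL8, CXCL10, LY6E and CCL2. The 5 largest decreases were APLN (-4.81 ± 1.00, adjusted p = 0.0315), RGS4, SOX18, EMCN and TOP2A. LY6E was listed at 0 in both IFNg and both untreated libraries and in TIME with TNFa alone, yet at 168 and 317 TPM with both cytokines, and its level is uncertain because genes at 0 in whole libraries can be failed estimates. Calls numbered 2841, 418, 487 and 498 with 1 library left out. Since the treated libraries are shared with the comparison against untreated, these calls are not a separate line of evidence.

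Against TNFa alone 1100 genes were called (8.36%), 235 higher (1.79%) and 865 lower (6.57%). CXCL9 led, followed by IDO1 with 1204 and 2781 TPM against 23.9 and 0.229 TPM (8.37 ± 1.27, adjusted p = 0.0414), CCL8, SERPING1 and ENSG00000226025, annotated as a pseudogene. The largest decreases were RPL39P36, ENSG00000250321, ATP5F1EP2, CSF2 and DLGAP5, and RPL39P36, ENSG00000250321 and ATP5F1EP2 are annotated as processed pseudogenes, so their values are uncertain. DLGAP5 had 10.7 and 1.54 TPM with both cytokines against 40.3 and 51.6 TPM with TNFa alone (-3.10 ± 0.57, adjusted p = 0.0443). The count again depended on single libraries: 2600 genes were called without the treated iHUVEC library, 2 without the treated TIME library, 8 without either untreated library, and 188 after median-of-ratios scaling.

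Whether the combined response departed from the sum of the single ones on the log2 scale was tested gene by gene. By limma 0 of 13164 genes were called (lowest adjusted p = 0.505), and 1179 had an unadjusted p under 0.05. In a fit over all 20 libraries 3 genes were called. For CXCL9 the departure was 6.32 ± 0.87 and for TOP2A -2.88 ± 0.75 on the log2 scale. A p that misses the threshold does not show that the responses add.

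The endothelial response was set against that of the AML lines in 1 fit over the 20 libraries. That fit has 1 error per gene for both cell types, so libraries of a cell type where the gene is near 0 lower its error. Adjusted p-values of such genes, among them CX3CL1, PLA1A, APLN, CTSG and CCL4, can therefore be too low. The difference between responses was called for 343 of 15043 genes tested (2.28%), 135 higher in endothelium (0.897%) and 208 lower (1.38%). CX3CL1 differed most, with 323 and 1600.1 TPM in treated endothelial cells and under 0.1 TPM in each treated AML line (difference 9.42 ± 0.81, adjusted p = 9.29e-05). C1S, C1R and PLA1A, a phospholipase, also rose more in endothelium, PLA1A with 104 and 257 TPM with both cytokines against 0.245 and 0.389 TPM untreated and at most 0.302 TPM in treated AML lines (6.80 ± 0.91, adjusted p = 0.00224). APLN fell in endothelium and was under 0.5 TPM in all AML libraries (-5.32 ± 0.92, adjusted p = 0.00961). The neutrophil chemokine gene CXCL5 was among the others called, at 35.8 and 34.2 TPM in treated and 0.119 and 0.268 TPM in untreated endothelial cells and at 0 in the treated and untreated AML libraries.

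The other 5 of the 10 largest differences came from the AML side. CTSG, CCL4, NCF1, NCF1C and SLAMF7 were at or under 0.1 TPM in the endothelial libraries with both cytokines or none. CCL4, a chemokine of myeloid cells, stood at 227, 29.4 and 143 TPM in treated Kasumi-1, NOMO-1 and THP-1 cells and at 0, 0 and 0.147 TPM untreated (-6.58 ± 0.80, adjusted p = 0.00123). CTSG, a granule protease, stood at 0.493, 0.117 and 70.5 TPM in those lines treated and at 216, 98.3 and 3001 TPM untreated (6.35 ± 1.23, adjusted p = 0.0181). NCF1 and its pseudogene NCF1C share reads. Leaving out 1 line gave 78 to 640 called genes, the fewest without THP-1 and the most without Kasumi-1. NOMO-1 libraries carried 73.2% to 82.1% of TPM in mitochondrial genes, and 547 genes were called without that line.

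**Figure D5:**
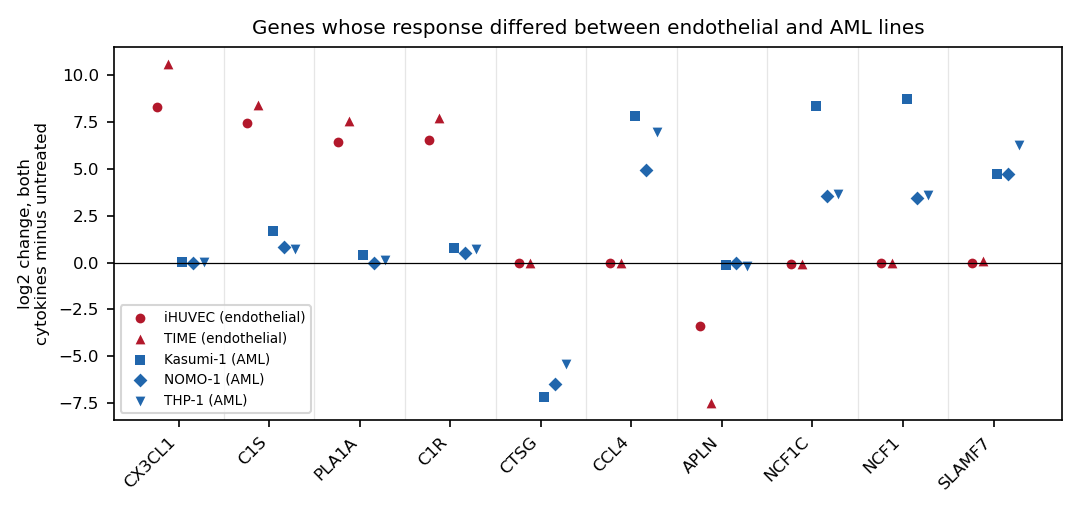
Change in log2(TPM + 1), both cytokines minus untreated, of the 10 genes whose response differed most between cell types, for each endothelial line (red) and AML line (blue). CX3CL1, C1S, PLA1A and C1R rise in the 2 endothelial lines, APLN falls in them, and the other 5 genes change only in AML lines.

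Transcript use within genes changed in a few cases. Of 15349 transcripts tested in 6395 genes, 5 (0.0326%) changed their share of the gene's TPM at an adjusted p under 0.05 by limma, and 1686 had an unadjusted p under 0.05. TANK-201, a transcript of an adaptor that restrains NF-kB signalling, held 71.0% and 69.7% of its gene with both cytokines, against 3.13% and 8.31% untreated (a difference of 64.6 ± 4.0 percentage points, adjusted p = 0.0204). With TNFa alone it held 73.4% and 79.3%. NCOA7-208, of a gene that protects against virus entry, held 76.1% and 92.7% with both cytokines and 8.96% and 15.0% untreated. Its share was 69.0% and 75.9% with TNFa alone and 4.99% and 21.9% with IFNg alone. TMEM63B-201 held 81.8% and 87.8% against 0% and 9.53%, with TMEM63B-202 falling by 73.7 percentage points, in a gene at 22.7 and 28.0 TPM with both cytokines. TMEM237-213 held 59.8% and 57.0% against 18.0% and 10.3%, but 0 in all 4 single-cytokine libraries. These 5 transcripts were not called when any of the 4 libraries was left out.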

How the data were processed

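RNA-seq of total RNA from 20 cultures (RNeasy extraction and Illumina libraries, per the labels' protocols) was deposited by the authors as TPM, a length-scaled relative abundance, per gene and per transcript. Salmon 1.2.0, DESeq2 1.28.1 and GRCh38.p13 are named in the submitters' processing notes, while no source used here gives the annotation release or the role of each tool. Depth is unknown, and with 1 library per line and condition the precision rests on the 2 lines and on the spread of other genes. Columns labelled x2 were read as both cytokines.

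Genes at 1 TPM or more in at least 2 libraries were tested as log2(TPM + 1) with limma 3.58.1 (R 4.3.3, with trend) on the 8 endothelial libraries with line as a block, and p-values were adjusted by Benjamini-Hochberg over all genes tested. The endothelial and AML responses were compared in 1 limma fit over 20 libraries, and transcript shares by limma on percentages. A fold on this scale understates changes of low genes. Same-numbered samples are the same cell line, which sets the pairing, and their deviations correlated at 0.66 to 0.82 over 12 pairs (with 2 lines the deviations mirror each other). Scripts were tested on simulated data. Gene coordinates are GENCODE annotation on GRCh38 and promoters RefSeq.

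Named were the 10 largest called changes each way, the 3 largest called members of each list, CD93, IL3RA and CD274, the 5 largest called changes each way in other comparisons, and any member of lists of 12 or fewer genes. Other genes were picked after their values were seen. The comparison, its members and the gene lists were chosen with earlier results of these data known. Alternatives were another pseudocount, filters, scaling, removal of mitochondrial genes, no trend, no block, other sample sets and each library left out.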

Additional observations from a re-analysis of the deposited data

Results flagged for a closer look

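For 10 genes the response to both cytokines differed between the endothelial and the AML lines by the limma test of the difference itself, the largest called on each side. The log2 difference, endothelial minus AML, was 9.42 for CX3CL1, 6.84 for C1S, 6.80 for PLA1A, 6.44 for C1R and 6.35 for CTSG. It was -6.58 for CCL4, -5.32 for APLN, -5.26 for NCF1C, -5.25 for NCF1 and -5.20 for SLAMF7. CTSG, CCL4, NCF1C, NCF1 and SLAMF7 were near 0 in endothelial cells, so their differences are changes in the AML lines.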

How the results depend on the processing

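Among the genes chosen by the naming rule, no change reversed its direction under the alternatives run; other genes named in the text were not rerun. Calls against untreated (4686) numbered 3000 with no filter, 664 with no replicate block and 2178 in the fit of all 20 libraries, and from 270 to 4804 with 1 library left out, with 967 without iHUVEC and 514 without TIME in 16-library fits. Calls against IFNg alone (2049) numbered 249 with no filter, 44 with no replicate block and 902 with all 20 libraries, from 418 to 2841 with 1 library left out, and 573 without iHUVEC and 299 without TIME. Calls against TNFa alone (1100) numbered 38 with a pseudocount of 0.1, 13 with no filter, 188 with median-of-ratios scaling, 111 with no trend, 3 with no replicate block and 587 with all 20 libraries, from 2 to 2600 with 1 library left out, and 602 without iHUVEC and 122 without TIME. Departures from the sum (0) numbered 3 with all 20 libraries, from 0 to 245 with 1 library left out, and 78 without iHUVEC and 30.0 without TIME. The endothelial against AML calls (343) numbered 171 with a pseudocount of 0.1 and 17 with no replicate block, and from 78 to 640 with 1 line left out. Transcript calls (5) numbered 2 with no replicate block, and the 5 were not called with 1 library left out. Fits without a line or library have fewer samples, and the lone sample of a group is assumed to vary like the others; other causes were not tested. Of the named genes' alternatives against untreated, 1266 stayed on the same side of the threshold, 287 no longer passed and 1 newly passed. Depth is unknown, so low genes carry no counting limit.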

Other observations

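TERT, the telomerase gene, picked after its values were seen, stood at 143 TPM in TIME cells with both cytokines, 336 TPM with IFNg alone, 442 TPM with TNFa alone and 784 TPM untreated, and at most at 0.0252 TPM in iHUVEC. The change did not pass by limma across the lines (adjusted p = 0.104).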
